A study of Mus musculus with 4 samples.

Results

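The genes of the proteasome, its activators and its assembly chaperones were followed across 4 sorted populations of mouse bone marrow. Members were all genes whose symbol begins with Psma, Psmb, Psmc, Psmd, Psme, Psmf or Psmg followed by a number, as named by probe sets that the platform annotation assigns to exactly 1 gene. This gave 47 genes of the 18194 genes named on the array, with 100 probe sets among them. The rule uses symbols and no measured value, but it was set with earlier results of these data known. Each gene was read from the brightest of its probe sets (by mean log2 intensity over the 4 arrays), and the others served as a check. The immune subunits Psmb8, Psmb9 and Psmb10 were kept apart from the other 44 genes.

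The 4 groups were Fbw7-deficient LSK cells, wild-type LSK cells, Fbw7-deficient MP cells and wild-type MP cells, with 1 Affymetrix array each. LSK cells were sorted as negative for lineage markers and positive for Kit and Sca1, a gate that holds hematopoietic stem cells together with other multipotent cells. The MP gate differs in being negative for Sca1 and holds progenitors committed to myeloid fates. Fbw7, encoded by Fbxw7, is the substrate-binding subunit of an SCF ubiquitin ligase, which marks proteins such as cyclin E and MYC for breakdown by the proteasome. Mice of both genotypes, wild-type included, had been injected 3 times with polyI:C at 20 ug per g, an inducer of interferon, with the marrow harvested 2 weeks after treatment. Each genotype is a pool of the marrow of 3 mice, from which both its LSK and its MP cells were sorted. The sources used here do not give the strain, the age, the Cre driver or the deleted part of Fbxw7. With 1 array per group, no replicate error exists, no test was made, and no difference below is shown to exceed the variation between animals or arrays. The number of arrays limits the precision throughout.

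The proteasome is the protease that degrades ubiquitin-tagged proteins. Its core particle is a barrel of stacked rings, with alpha subunits in the outer rings, where they gate entry, and beta subunits in the inner rings. Psmb5, Psmb6 and Psmb7 encode the catalytic beta subunits. The regulatory particle caps the barrel: its ATPases (Psmc genes) unfold substrates, and its non-ATPase subunits (most Psmd genes) bind and deubiquitinate them. Under interferon, the products of Psmb8, Psmb9 and Psmb10 take the place of the catalytic subunits, which changes the peptides available for MHC class I presentation. The Psme1 and Psme2 products form an activator that works without ATP. Dedicated chaperones assemble core and cap.

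Markers checked the labels. The stem cell transcription factor gene Hlf read 1677 in Fbw7-deficient LSK cells and 5515 in wild-type LSK cells, against 391 in Fbw7-deficient MP cells and 478 in wild-type MP cells. Elane, which encodes neutrophil elastase, read 9986 in Fbw7-deficient LSK cells and 1322 in wild-type LSK cells, against 21158 in Fbw7-deficient MP cells and 23552 in wild-type MP cells. The summed intensity of 8 erythroid markers was 24750 in Fbw7-deficient LSK cells and 5131 in wild-type LSK cells, and 42165 in Fbw7-deficient MP cells and 20614 in wild-type MP cells. Fbxw7 itself read 1103 in Fbw7-deficient LSK cells and 1355 in wild-type LSK cells, and 958 in Fbw7-deficient MP cells and 691 in wild-type MP cells on its brighter probe set. Since the deleted part is not known here, that does not check the genotype. For Gapdh, the 3' control probe set read 2.75 times the 5' one in Fbw7-deficient LSK cells and 4.30 times in wild-type LSK cells, with 2.95 times in Fbw7-deficient MP cells and 2.60 times in wild-type MP cells. For Actb the same ratio was 2.89 in Fbw7-deficient LSK cells and 3.53 in wild-type LSK cells, with 2.99 in Fbw7-deficient MP cells and 2.67 in wild-type MP cells. The wild-type LSK array therefore had the highest 3' bias by both genes, more clearly by Gapdh. That array enters each comparison in which the proteasome genes differed most.

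Most proteasome genes other than the immune subunits were higher in Fbw7-deficient than in wild-type LSK cells by small amounts, and most were lower in LSK than in MP cells of either genotype. In Fbw7-deficient MP cells they differed little as a group from wild-type MP cells, whereas Psmb8, Psmb9 and the activator gene Psme1 read lower there. Of the 47 genes, 46 reached the median of all values in the table, an intensity of 157, and these 46 did so on all 4 arrays, the lowest value being 363. The remaining gene, Psmb11, encodes the beta subunit of thymic cortical epithelium. It read 77.2 in Fbw7-deficient LSK cells, 76.4 in wild-type LSK cells, 80.2 in Fbw7-deficient MP cells and 74.0 in wild-type MP cells, so it is not shown to be above background. Counts below are of the 43 genes above this level that are not immune subunits, set beside all 12240 genes above it.

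In LSK cells, 40 of the 43 genes read higher in the Fbw7-deficient than in the wild-type array, where 50.8% of all genes did. The exceptions were Psmb2, Psmd5 and Psme1. The median log2 difference was 0.24 (from -0.10 to 0.63), against 0.00 for all genes. The smallest size counted was a log2 difference of 0.32, a ratio of 5 to 4. Higher by at least that were 11 of the 43 (13.2% of all genes) and lower by at least that were 0 (17.2% of all genes). At least 1.5-fold lower were 0 (7.08% of all genes). None reached 2-fold in either direction, where 1.79% of all genes were 2-fold higher and 1.95% 2-fold lower. In these sorted populations a larger share of cells rich in a transcript and more of it per cell cannot be told apart. The summed intensity of 6 markers of neutrophil and monocyte progenitors was 101571 in Fbw7-deficient LSK cells and 52803 in wild-type LSK cells, and that of 8 stem cell markers was 12617 in Fbw7-deficient LSK cells and 27103 in wild-type LSK cells. Both marker sums thus differed between the genotypes along with the proteasome genes, and their part in the result, like that of the 3' bias of the wild-type LSK array, was not tested.

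In MP cells, 28 of the 43 genes read higher in the Fbw7-deficient array (49.6% of all genes), with a median log2 difference of 0.09 (from -0.58 to 0.56), against 0.00 for all genes. Higher by at least log2 0.32 were 6 (10.9% of all genes) and lower by as much were 4 (13.8% of all genes), shares near those of all genes. The higher ones were Psma8, Psmc4, Psmd3, Psmd9, Psmg3 and Psmf1, and the lower ones Psmb7, Psmc5, Psmd6 and Psme1. Both genotype differences were above 0 in 27 of the 43 genes, against 31.4% of all genes.

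Set against wild-type MP cells, wild-type LSK cells read lower in 40 of the 43 genes (52.0% of all genes), with a median log2 difference of -0.29, against -0.02 for all genes. The exceptions, Psma6, Psmb6 and Psme1, were at most log2 0.02 above 0. Lower by at least log2 0.32 were 18 (16.8% of all genes) and higher by as much were 0 (23.6% of all genes). At least 1.5-fold lower were 6 (6.91% of all genes), and 2 of these, Psmb7 and Psmc5, were at least 2-fold lower (2.40% of all genes). Fbw7-deficient LSK cells read lower than Fbw7-deficient MP cells in 36 of the 43 genes (48.2% of all genes), with a median of -0.17, against 0.01 for all genes. There, 8 were lower by at least log2 0.32 (13.6% of all genes) and 1, Psme1, was higher by as much (19.9% of all genes). The comparison within LSK cells and that of wild-type LSK with wild-type MP cells share the wild-type LSK array, on which 38 of the 43 genes had their lowest value of the 4 arrays (36.5% of all genes). The highest value lay on the Fbw7-deficient MP array for 25 genes (31.2% of all genes) and on the wild-type MP array for 13 (18.3% of all genes). For 24 of the 43 the Fbw7-deficient LSK value lay between that of wild-type LSK cells and a higher one of wild-type MP cells (23.7% of all genes).

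The LSK genotype difference minus the MP genotype difference had a median of log2 0.14 over the 43 genes, against 0.00 for all genes, with 30 above 0 (50% of all genes). Above log2 0.32 were 11 (15.0% of all genes) and below -0.32 were 0 (15.8% of all genes). At least 1.5-fold on the linear scale were Psmb7, Psmc5 and Psmc6 (5.68% of all genes), of which Psmb7 and Psmc5 were also at least 2-fold (2.20% of all genes). With opposite signs in LSK and MP and at least 1.5-fold apart in either direction were the same 3 of the 43, a share near the 7.01% of all genes.

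**Figure D1:**
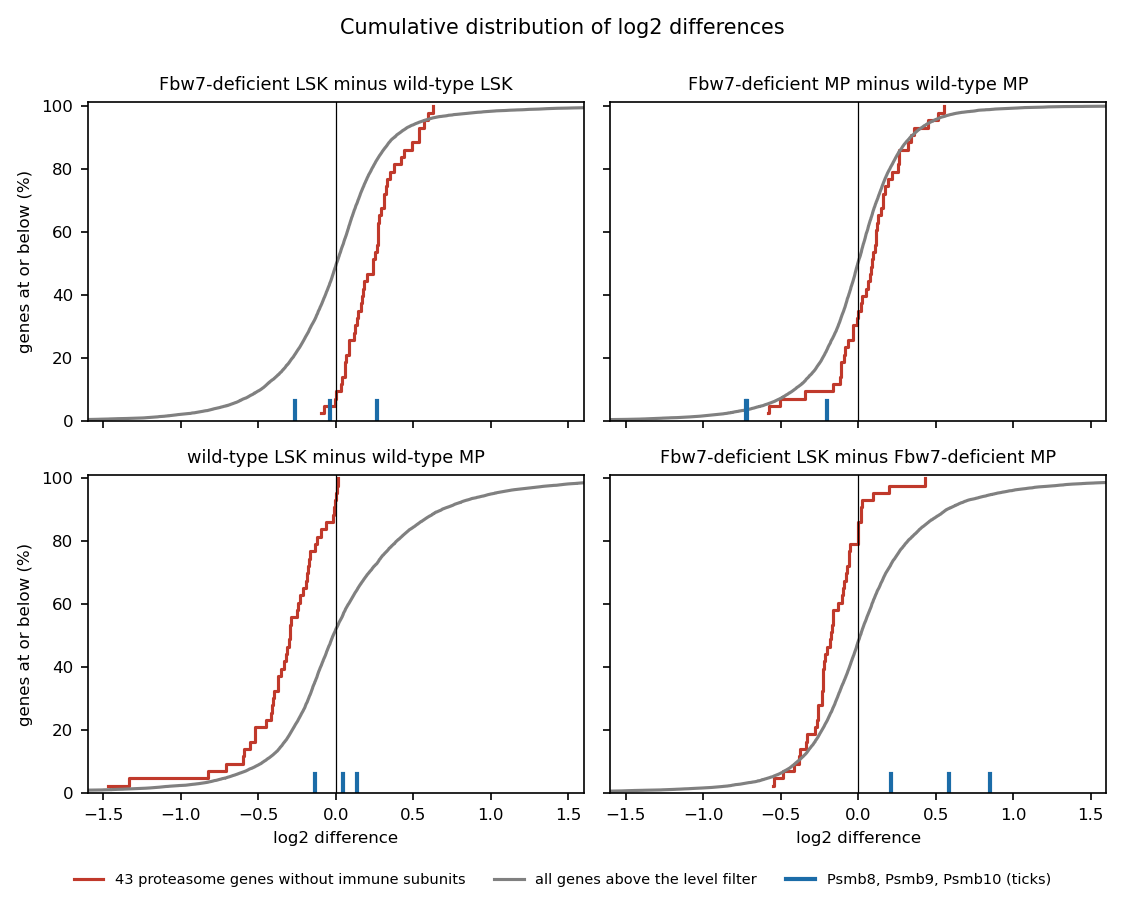
Cumulative share of genes (percent) by log2 difference in the 4 comparisons, for the 43 proteasome genes without immune subunits (red), all 12240 genes above the level filter (grey) and Psmb8, Psmb9 and Psmb10 (blue ticks). In the LSK genotype comparison 40 of the 43 genes lie above 0, and in the comparison of wild-type LSK with wild-type MP cells 40 of the 43 lie below 0.

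Mitochondrial ribosomal protein genes, 73 above the level filter, had medians like those of the proteasome genes in 3 of the 4 comparisons. Their median log2 difference was 0.33 between the LSK genotypes, with 72 of 73 above 0. It was -0.29 for wild-type LSK against wild-type MP cells and -0.17 for Fbw7-deficient LSK against Fbw7-deficient MP cells, the same values as for the proteasome genes. Between the MP genotypes it was 0.26, beside 0.09 for the proteasome genes. Cytosolic ribosomal protein genes, 41 above the filter, had medians between 0.00 and 0.02 in all 4 comparisons. No difference between the families was tested.

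The alpha subunits form the outer rings of the core. All 8 genes read higher in Fbw7-deficient LSK cells (50.8% of all genes), with log2 differences from 0.06 for Psma6 to 0.35 for Psma1 and a median of 0.17. Psma1 read 9786 in Fbw7-deficient LSK cells and 7693 in wild-type LSK cells, and 10429 in Fbw7-deficient MP cells and 11651 in wild-type MP cells. The wild-type LSK value was the lowest of the 4. A much dimmer probe set of Psma1, at 214 in Fbw7-deficient LSK cells and 274 in wild-type LSK cells, ran the other way (log2 -0.36). Psma4 read 4926 in Fbw7-deficient LSK cells and 3963 in wild-type LSK cells, with 5272 in Fbw7-deficient MP cells and 5701 in wild-type MP cells. Psma7, at 8081, 6671, 7995 and 8642 in that order of groups, was likewise lowest in wild-type LSK cells. Psma2, Psma3, Psma5 and Psma6 differed by at most log2 0.14 between the LSK arrays. In MP cells, 6 of the 8 alpha genes read lower in the Fbw7-deficient array (50.4% of all genes), with log2 differences from -0.16 for Psma1 to 0.32 for Psma8. Psma8, the testis form of an alpha subunit, read 417 in Fbw7-deficient LSK cells and 363 in wild-type LSK cells, and 527 in Fbw7-deficient MP cells and 422 in wild-type MP cells.

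Of the 7 constitutive beta subunits, 6 read higher in Fbw7-deficient LSK cells (50.8% of all genes), with a median log2 difference of 0.13. Psmb2 was the exception, at 1885 in Fbw7-deficient LSK cells and 2014 in wild-type LSK cells (log2 -0.10). Among the catalytic subunits, Psmb5, which encodes the chymotrypsin-like one, read 8859 in Fbw7-deficient LSK cells and 7853 in wild-type LSK cells, and 10426 in Fbw7-deficient MP cells and 9633 in wild-type MP cells. Psmb1, Psmb3 and Psmb4, which encode beta subunits without catalytic sites, had log2 differences of 0.18, 0.13 and 0.04 in LSK and of -0.08, 0.02 and 0.19 in MP. Psmb6, which encodes the caspase-like one, stayed between 7625 and 8294 on the 4 arrays. Psmb7, which encodes the trypsin-like one, spanned the widest range of log2 values among the 47 genes on their brightest probe sets. It read 3725 in Fbw7-deficient LSK cells and 2406 in wild-type LSK cells (1.55-fold higher, log2 0.63), and 4466 in Fbw7-deficient MP cells and 6668 in wild-type MP cells (log2 -0.58). The wild-type arrays are the lowest and the highest of the 4, and both Fbw7-deficient values lie between them. Wild-type LSK cells were thus 2.77-fold below wild-type MP cells, where Fbw7-deficient LSK cells were 1.20-fold below Fbw7-deficient MP cells. The gene has no other probe set here.

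**Figure D2:**
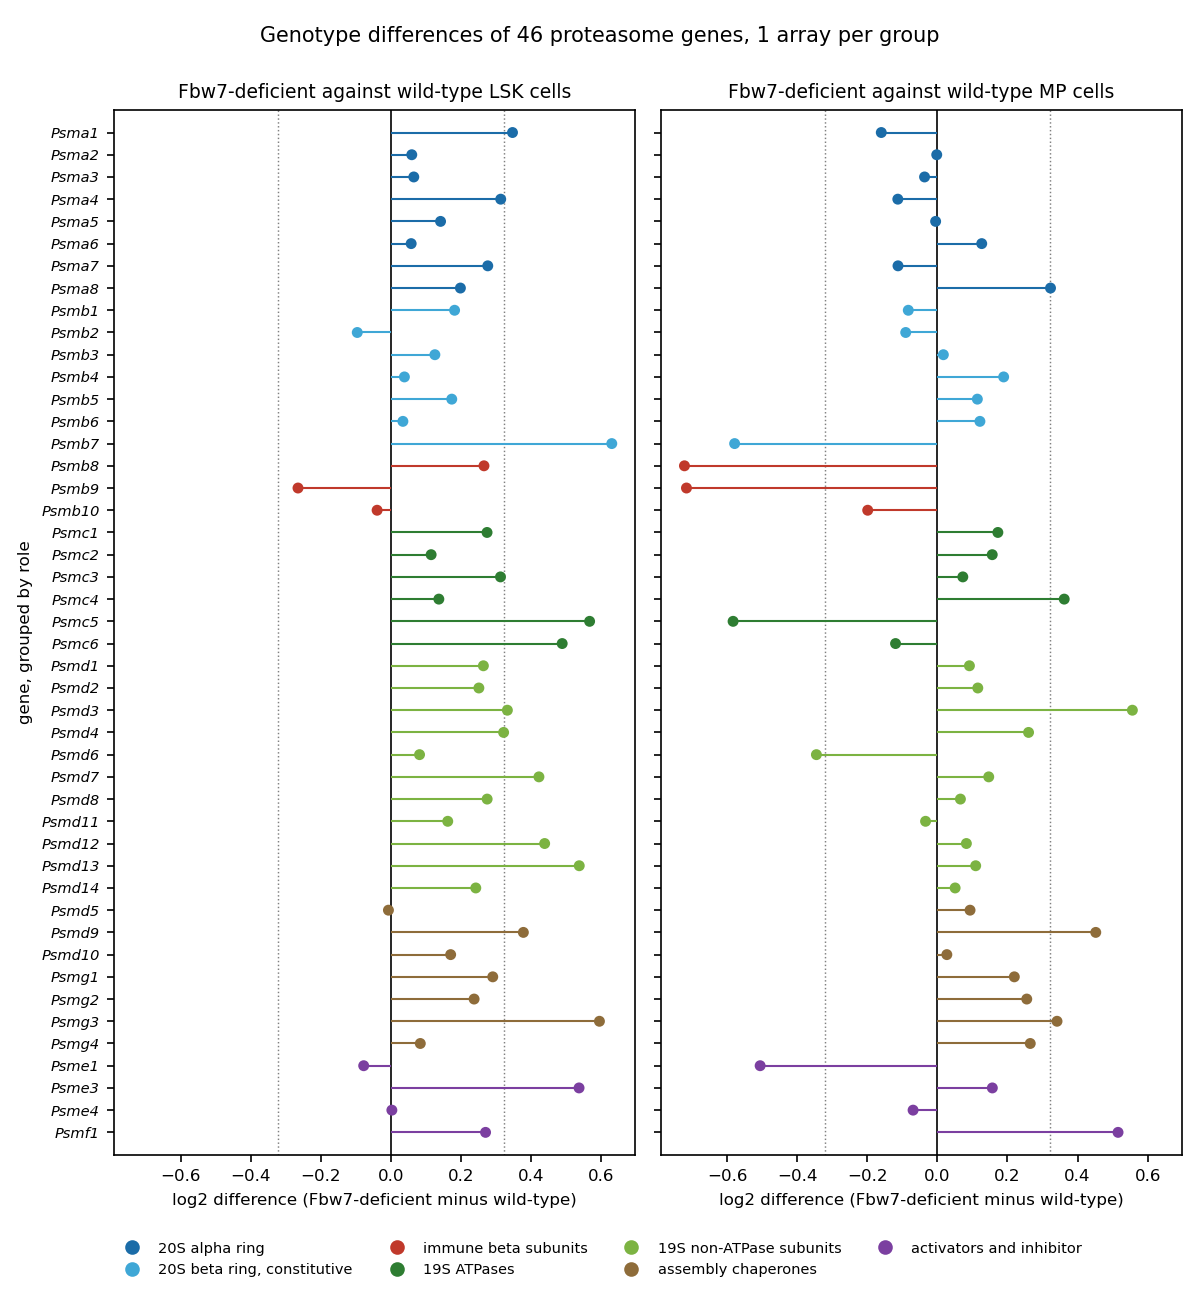
Log2 difference between Fbw7-deficient and wild-type cells for 46 proteasome genes in LSK cells (left) and MP cells (right), 1 array per group, coloured by role, with dotted lines at log2 0.32 in either direction. In LSK cells the points lie mostly right of 0, led by Psmb7 at 0.63, and in MP cells they lie on both sides, with Psmb8 and Psmb9 both at -0.72.

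All 6 ATPases of the regulatory particle read higher in Fbw7-deficient LSK cells (50.8% of all genes), with log2 differences from 0.12 for Psmc2 to 0.57 for Psmc5 and a median of 0.29. Psmc5 read 2980 in Fbw7-deficient LSK cells and 2011 in wild-type LSK cells (log2 0.57), and 3387 in Fbw7-deficient MP cells and 5073 in wild-type MP cells (log2 -0.58). As with Psmb7, the lowest and the highest values were both wild-type. Psmc6 read 4335 in Fbw7-deficient LSK cells and 3089 in wild-type LSK cells, and 4655 in Fbw7-deficient MP cells and 5057 in wild-type MP cells. Its other probe sets above the level filter gave log2 differences of 0.14 and 0.11 in LSK and of 0.40 and 0.23 in MP, where the brightest gave 0.49 and -0.12, so its direction in MP depends on the probe set. Psmc4 read highest in Fbw7-deficient MP cells, at 12111, against 9424 in wild-type MP cells (log2 0.36), with 10334 in Fbw7-deficient LSK cells and 9397 in wild-type LSK cells. Psmc1 and Psmc3 had log2 differences of 0.27 and 0.31 in LSK.

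All 11 non-ATPase subunits of the regulatory particle also read higher in Fbw7-deficient LSK cells (50.8% of all genes), with a median log2 difference of 0.27, and all 11 were below 0 for wild-type LSK against MP cells (52.0% of all genes). Psmd13 read 3534 in Fbw7-deficient LSK cells and 2435 in wild-type LSK cells (log2 0.54), and 3312 in Fbw7-deficient MP cells and 3070 in wild-type MP cells. Its 3 further probe sets above the level filter ran the same way in LSK, with log2 differences from 0.26 to 0.40. Psmd12, at 5834 in Fbw7-deficient LSK cells and 4304 in wild-type LSK cells, had a log2 difference of 0.44. Psmd7, whose product partners the deubiquitinase encoded by Psmd14, read 1974 in Fbw7-deficient LSK cells and 1473 in wild-type LSK cells, and 2885 in Fbw7-deficient MP cells and 2606 in wild-type MP cells. Both LSK values of Psmd7 lay below both MP values. Psmd14 itself read 11291 in Fbw7-deficient LSK cells and 9544 in wild-type LSK cells, with 11290 in Fbw7-deficient MP cells and 10900 in wild-type MP cells. The ubiquitin receptor gene Psmd4 had log2 differences of 0.32 in LSK and 0.26 in MP. Psmd3, a scaffold subunit, had its largest genotype difference in MP, at 3774 in Fbw7-deficient MP cells and 2566 in wild-type MP cells (log2 0.56). The scaffold subunit genes Psmd1 and Psmd2 had log2 differences of 0.26 and 0.25 in LSK, and Psmd11 of 0.16. Psmd8 was nearly equal in wild-type LSK and wild-type MP cells, at 4016 and 4047.

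Psmd6 was the non-ATPase subunit with the smallest LSK genotype difference on its brighter probe set and a large one on the other. The brighter read 7667 in Fbw7-deficient LSK cells and 7244 in wild-type LSK cells, and 8606 in Fbw7-deficient MP cells and 10931 in wild-type MP cells (log2 0.08 in LSK and -0.35 in MP). The other read 4226 in Fbw7-deficient LSK cells and 2889 in wild-type LSK cells, and 5013 in Fbw7-deficient MP cells and 10255 in wild-type MP cells (log2 0.55 in LSK and -1.03 in MP). Both probe sets put wild-type LSK cells lowest and wild-type MP cells highest, the order also seen for Psmb7 and Psmc5, while the size differs. Higher in LSK and lower in MP by at least log2 0.32 each were 2 of the 43 genes, Psmb7 and Psmc5, beside 1.15% of all genes.

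**Figure D3:**
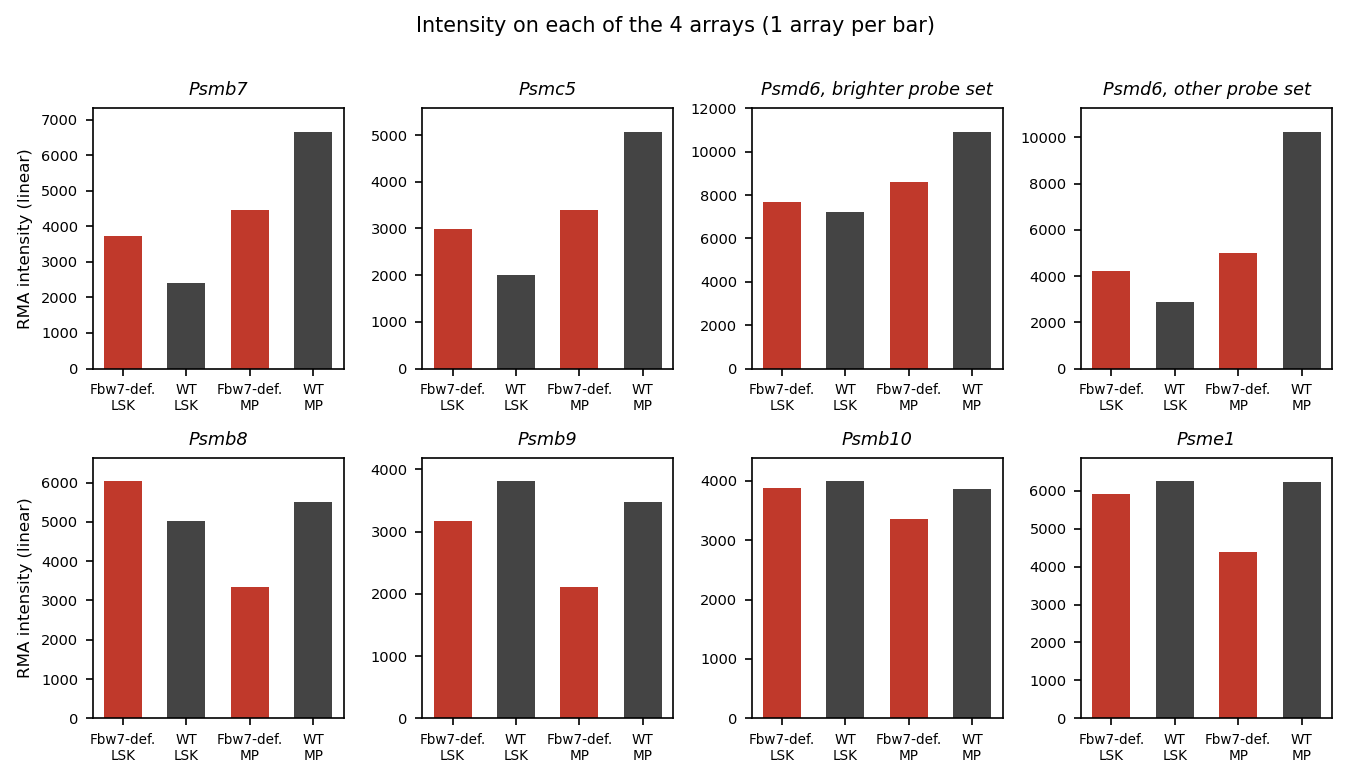
RMA intensity (linear, from 0) on each array for Psmb7, Psmc5, both bright probe sets of Psmd6, the immune subunit genes Psmb8, Psmb9 and Psmb10 and the activator gene Psme1, with Fbw7-deficient arrays in red and wild-type arrays in dark grey. In the top row wild-type MP cells are highest and wild-type LSK cells lowest, and in the bottom row Fbw7-deficient MP cells are lowest.

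The 3 immune subunits had median log2 differences of -0.04 in LSK and -0.72 in MP, against 0.13 and 0.02 for the constitutive beta subunits. That contrast does not hold for each gene. On its brightest probe set, Psmb8 was higher in LSK and lower in MP, as was the core subunit gene Psmb7 (log2 0.63 and -0.58). Psmb8 read 6031 in Fbw7-deficient LSK cells and 5016 in wild-type LSK cells, and 3343 in Fbw7-deficient MP cells and 5513 in wild-type MP cells. Its log2 differences were 0.27 in LSK and -0.72 in MP (1.65-fold lower). The second probe set of Psmb8, at 966, 1031, 683 and 836 in the same order, gave -0.09 in LSK and -0.29 in MP, so the direction in LSK depends on the probe set. Psmb9 read 3169 in Fbw7-deficient LSK cells and 3808 in wild-type LSK cells (log2 -0.26), and 2113 in Fbw7-deficient MP cells and 3470 in wild-type MP cells (log2 -0.72). Psmb10 differed least, at 3882 in Fbw7-deficient LSK cells and 3989 in wild-type LSK cells (log2 -0.04), and 3360 in Fbw7-deficient MP cells and 3856 in wild-type MP cells (log2 -0.20). All 3 had their lowest value of the 4 arrays in Fbw7-deficient MP cells, as 30.9% of all genes did. Of the 3, 2 were at least 1.5-fold lower there than in wild-type MP cells, beside 5.26% of all genes.

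The activators and the inhibitor of the core also differed among themselves. Psme1, which encodes a subunit of the interferon-inducible activator, read 5922 in Fbw7-deficient LSK cells and 6248 in wild-type LSK cells, and 4396 in Fbw7-deficient MP cells and 6241 in wild-type MP cells. Only the Fbw7-deficient MP value stands apart (log2 -0.51 against wild-type MP), the same array as for the immune subunits. The probe set annotated for Psme2 also names a second gene, so Psme2 is not among the members. Psme3, the nuclear activator that is not interferon-inducible, read 2125 in Fbw7-deficient LSK cells and 1464 in wild-type LSK cells (log2 0.54), and 2397 in Fbw7-deficient MP cells and 2150 in wild-type MP cells (log2 0.16). Its other probe set above the filter gave log2 0.21 in LSK and 0.89 in MP, so both probe sets were above 0 in both populations with opposite order of size. Psme4, which encodes the large single-chain activator, was level between the LSK arrays on its brightest probe set, at 3546 in Fbw7-deficient and 3539 in wild-type cells, while the others above the level filter gave log2 0.66 and 0.15. In MP the brightest gave log2 -0.07 and those others -0.44 and -0.32, in the same order. The size of the Psme4 difference thus depends on the probe set in both populations. Psmf1, which encodes a proteasome inhibitor, read 1878 in Fbw7-deficient LSK cells and 1558 in wild-type LSK cells, and 2449 in Fbw7-deficient MP cells and 1713 in wild-type MP cells (log2 0.52). All 4 probe sets of Psmf1 were higher in Fbw7-deficient MP cells.

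Psmb8 and Psmb9 lie in the MHC class II region of chromosome 17, where RefSeq (GRCm38.p6) orders the genes Psmb9, Tap1, Psmb8 and Tap2 with none between them. Tap1 and Tap2, whose products form the transporter that brings proteasome peptides to MHC class I, shared the lower reading in Fbw7-deficient MP cells. Tap1 read 2021 in Fbw7-deficient LSK cells and 2891 in wild-type LSK cells (log2 -0.52), and 1199 in Fbw7-deficient MP cells and 1661 in wild-type MP cells (log2 -0.47). Tap2 had log2 differences of -0.62 in LSK and -0.59 in MP. Both Tap genes read higher in LSK than in MP cells of either genotype, by log2 0.66 to 0.80. Psmb8 and Psmb9 had log2 differences of -0.14 and 0.13 between wild-type LSK and wild-type MP cells. In the list of MHC class I presentation genes and interferon regulators, 14 of 15 genes above the level filter read lower in Fbw7-deficient MP cells (50.4% of all genes; median log2 -0.30, the exception being Irf9, named after its value was seen), and 8 of 15 read lower in Fbw7-deficient LSK cells (49.2% of all genes; median -0.22). The interferon regulatory factor gene Irf1 read 3649 in Fbw7-deficient LSK cells and 4441 in wild-type LSK cells, and 1719 in Fbw7-deficient MP cells and 2419 in wild-type MP cells. Irf8, a transcription factor of monocytes, dendritic cells and B cells, read 8366 in Fbw7-deficient LSK cells and 4955 in wild-type LSK cells, and 3318 in Fbw7-deficient MP cells and 9804 in wild-type MP cells. It had the largest MP difference in that list (log2 -1.56). The MHC class I activator gene Nlrc5 had log2 differences of -0.68 in LSK and -0.32 in MP, and Irf2 of -0.83 and -0.03.

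Lymphoid markers were among several marker lists that differed alongside the immune subunits in MP cells. The summed intensity of 8 lymphoid markers was 2152 in Fbw7-deficient MP cells and 4876 in wild-type MP cells. It was 27066 in Fbw7-deficient LSK cells and 26419 in wild-type LSK cells. The near-equal LSK sums do not mean unchanged markers. The marker Dntt alone read 17155 in Fbw7-deficient and 14365 in wild-type LSK cells. Single markers differed in both directions there, from log2 -0.59 for Flt3 to 1.76 for Rag1. Of these 8 lymphoid markers, 6 were at or above the level filter on the Fbw7-deficient MP array and 7 on the wild-type MP array. All 8 read lower on the Fbw7-deficient than on the wild-type MP array, with none at 0 (50.4% of all genes). The sums of stem cell, megakaryocyte and plasma cell markers were also lower in Fbw7-deficient than in wild-type MP cells. They were 5765 against 9125, 5303 against 9862 and 9394 against 12763, in that order. Erythroid markers ran the other way in MP (42165 in Fbw7-deficient and 20614 in wild-type cells). So did markers of neutrophil and monocyte progenitors (141610 and 138308) and of mature neutrophils and macrophages (58231 and 52965). The part of any of these lists in the lower reading of Psmb8, Psmb9 and Psme1 was not tested.

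The promoters of these genes are shown because the immune subunits and Psme1 read lowest on the same array, and those of Psmc5 and Psmd6 because both had wild-type extremes in both populations. RefSeq (GRCm38.p6) gave a window of 250 bases before to 50 after the start for 39 of the 47 genes. Windows are written 5′ to 3′ on the strand of the gene. Capitals mark matches, on either strand, to any of 5 short motifs: the antioxidant response core TGACNNNGC, bound by the proteasome gene regulator encoded by Nfe2l1, the CCAAT box, the interferon regulatory factor repeat (GAAA, any 2 bases, GAAA), the STAT palindrome TTCNNNGAA and the ETS core CCGGAAG.
Psmb8 (chr17:34197945-34198244, plus strand): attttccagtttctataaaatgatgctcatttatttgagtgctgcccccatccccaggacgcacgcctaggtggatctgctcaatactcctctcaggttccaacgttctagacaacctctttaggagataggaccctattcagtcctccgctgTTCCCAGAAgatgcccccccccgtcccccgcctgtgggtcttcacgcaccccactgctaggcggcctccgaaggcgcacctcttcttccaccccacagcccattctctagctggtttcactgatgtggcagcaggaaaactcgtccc
Psmb9 (chr17:34187281-34187580, minus strand): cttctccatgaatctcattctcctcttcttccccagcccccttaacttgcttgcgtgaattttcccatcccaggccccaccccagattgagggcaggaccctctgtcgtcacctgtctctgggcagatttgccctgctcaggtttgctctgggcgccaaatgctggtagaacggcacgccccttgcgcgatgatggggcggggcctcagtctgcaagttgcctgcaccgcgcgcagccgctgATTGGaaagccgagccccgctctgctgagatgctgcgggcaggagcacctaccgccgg
Psmb10 (chr8:105938343-105938642, minus strand): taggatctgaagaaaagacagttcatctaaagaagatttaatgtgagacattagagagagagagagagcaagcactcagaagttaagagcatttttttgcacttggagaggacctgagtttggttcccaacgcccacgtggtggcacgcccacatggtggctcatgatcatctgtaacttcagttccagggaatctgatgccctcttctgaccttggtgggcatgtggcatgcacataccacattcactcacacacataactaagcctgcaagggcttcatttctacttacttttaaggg
Psme1 (chr14:55578244-55578543, plus strand): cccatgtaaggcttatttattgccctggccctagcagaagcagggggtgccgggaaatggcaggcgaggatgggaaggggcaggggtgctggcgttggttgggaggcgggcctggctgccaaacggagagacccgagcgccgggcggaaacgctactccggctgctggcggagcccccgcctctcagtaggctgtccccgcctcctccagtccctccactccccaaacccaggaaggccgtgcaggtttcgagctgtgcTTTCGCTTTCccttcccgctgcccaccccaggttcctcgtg
Psmc5 (chr11:106255935-106256234, plus strand): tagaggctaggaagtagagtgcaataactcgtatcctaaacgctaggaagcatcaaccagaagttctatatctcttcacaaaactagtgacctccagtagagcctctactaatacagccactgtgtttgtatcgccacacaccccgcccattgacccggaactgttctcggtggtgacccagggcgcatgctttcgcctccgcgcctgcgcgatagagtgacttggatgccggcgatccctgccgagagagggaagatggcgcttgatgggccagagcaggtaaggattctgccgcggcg
Psmd6 (chr14:14120896-14121195, minus strand): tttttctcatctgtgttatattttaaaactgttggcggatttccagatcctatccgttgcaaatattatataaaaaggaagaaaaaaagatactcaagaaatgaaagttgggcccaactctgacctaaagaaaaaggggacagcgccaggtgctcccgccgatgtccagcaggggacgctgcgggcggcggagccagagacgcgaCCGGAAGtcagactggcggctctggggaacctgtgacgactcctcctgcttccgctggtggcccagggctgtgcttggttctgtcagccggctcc

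Of the 4 interferon-inducible genes, Psme1 held the interferon regulatory factor repeat, Psmb8 the STAT palindrome and Psmb9 a CCAAT box on the opposite strand, and Psmb10 held none of the 5 motifs in its window. The Psmd6 window held the ETS core and the Psmc5 window none. Over the 39 members with a window, the ETS core was found in 14, among them Psmc6, Psmd12, Psmd13 and Psmg3. It was found in 8.86% of all 32851 windows and in 19.4% of the 9901 genes above the level filter that have a window. The share of genes, like the member counts, takes a gene once if any of its windows holds the motif. The share of windows is in another unit. The interferon regulatory factor repeat was found in 5 of the 39 (3.44% of all windows and 3.66% of genes above the filter) and the STAT palindrome in 3 (8.30% and 8.22%). The antioxidant response core was found in 6 (12.4% and 16.8%) and the CCAAT box in 14 (37.4% and 42.4%). No 2 of these motifs share letters in the windows printed. A match is a description of letters and no evidence of binding.

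Nearly all assembly chaperone genes among the members, which were chosen by symbol, read higher in Fbw7-deficient cells of both populations. Pomp, which encodes the maturation factor of the core, is no member and is given below. In Fbw7-deficient LSK cells 6 of 7 were higher (50.8% of all genes; median log2 0.24) and in Fbw7-deficient MP cells all 7 were (49.6% of all genes; median 0.26), so that this was the role group with the highest median in MP. Psmg3, a chaperone of the alpha ring, read 3242 in Fbw7-deficient LSK cells and 2146 in wild-type LSK cells (1.51-fold higher), and 3722 in Fbw7-deficient MP cells and 2938 in wild-type MP cells (1.27-fold higher). Psmb7 and Psmg3 were the 2 of the 43 genes at least 1.5-fold higher in Fbw7-deficient LSK cells, beside 4.50% of all genes. Psmg1 and Psmg2, which form another alpha ring chaperone, read 3856 and 4686 in Fbw7-deficient LSK cells and 3152 and 3975 in wild-type LSK cells, and 4481 and 5895 in Fbw7-deficient MP cells and 3848 and 4939 in wild-type MP cells. Among the chaperones of the ATPase ring, Psmd9 had log2 differences of 0.38 in LSK and 0.45 in MP. Psmd10, which encodes gankyrin, had 0.17 and 0.03, and Psmd5 had -0.01 and 0.09. Psmg4, the partner of Psmg3, read 1302 in Fbw7-deficient LSK cells and 1228 in wild-type LSK cells, and 1577 in Fbw7-deficient MP cells and 1312 in wild-type MP cells. All 7 chaperones were lower in LSK than in MP cells of either genotype (48.2% of all genes among Fbw7-deficient and 52.0% among wild-type cells).

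Genes that work beside the proteasome were taken from a list that holds no members. Of 14 associated and supply genes above the level filter, 10 read higher in Fbw7-deficient LSK cells (50.8% of all genes; median log2 0.15) and 4 in Fbw7-deficient MP cells (49.6% of all genes; median -0.05). Uchl5, a deubiquitinase of the regulatory particle, read 5980 in Fbw7-deficient LSK cells and 4575 in wild-type LSK cells (log2 0.39), and 5999 in Fbw7-deficient MP cells and 6150 in wild-type MP cells. Pomp, the maturation factor of the core, read 4397 in Fbw7-deficient LSK cells and 3939 in wild-type LSK cells, and 5011 in Fbw7-deficient MP cells and 5188 in wild-type MP cells. The shuttle genes Ubqln4 and Rad23b had log2 differences of 0.33 and 0.30 in LSK. Zfand5, whose product stimulates the proteasome, ran the other way, at 5963 in Fbw7-deficient LSK cells and 9453 in wild-type LSK cells (log2 -0.66), and 4067 in Fbw7-deficient MP cells and 4954 in wild-type MP cells. The regulators differed among themselves. Nfe2l1, which encodes the factor that induces proteasome genes when proteasomes fail, read 835 in Fbw7-deficient LSK cells and 997 in wild-type LSK cells (log2 -0.26), and 821 in Fbw7-deficient MP cells and 807 in wild-type MP cells. Ngly1, which encodes the glycanase that activates it, had a log2 difference of -0.50 in LSK and -0.20 in MP. Nfe2l2, also in the list of regulators, ran in the direction of most subunits. Its log2 differences were 0.17 in LSK and 0.11 in MP. For LSK against MP cells they were -0.44 in wild-type and -0.38 in Fbw7-deficient cells. Of 6 regulators, 2 read higher in Fbw7-deficient LSK cells (50.8% of all genes) and 4 lower (49.2% of all genes). Among 5 genes of ubiquitin activation and unfolding, all read higher there (50.8% of all genes), led by the unfoldase gene Vcp at 11399 in Fbw7-deficient LSK cells and 9416 in wild-type LSK cells.

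The size of the differences was set beside the brightness of the probe sets. In LSK, the median difference was log2 0.09 for the 8 genes of the 43 with a geometric mean intensity of at least 10000, all 8 above 0, with none higher by at least log2 0.32. The other 35 had a median of 0.27, with 32 above 0 and 11 higher by at least log2 0.32. Over all genes above the level filter, the median size of the LSK difference was 0.10 for the 404 genes at or above 10000 and 0.20 for the others. Of those 404 genes, 240 were above 0 and 39 were higher by at least log2 0.32. Among the other 11836 genes, 5972 were above 0 and 1574 were higher by as much. The 8 bright proteasome genes were Psma2, Psma3, Psma5, Psma6, Psmb4, Psmc2, Psmc4 and Psmd14.

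**Figure D4:**
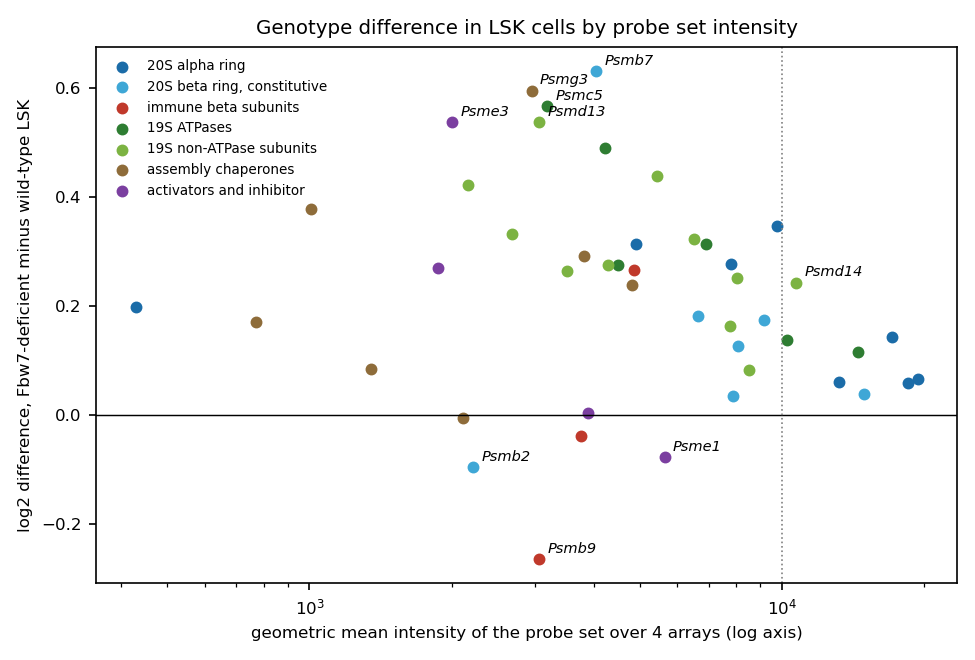
Log2 difference between Fbw7-deficient and wild-type LSK cells (vertical) against the mean intensity of the probe set over the 4 arrays (horizontal, log axis), 46 genes coloured by role, with a dotted line at 10000. Right of the line no gene reaches log2 0.32, and the largest differences, led by Psmb7 at 0.63, lie left of it.

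Further probe sets of the same genes give a measure of how repeatable a difference is within these arrays, though not between animals. Above the level filter, 21 of the 43 genes had 32 further probe sets. In LSK, 26 of the 32 ran in the direction of the chosen probe set (67.8% over all genes). Above 0 were 26, beside 4528 of 8644 further probe sets over all genes. The median log2 difference of the 32 was 0.16. In MP, 19 of 32 ran in the same direction (66.6% over all genes). For wild-type LSK against wild-type MP cells it was also 19 of 32 (66.6% over all genes). Above 0 in that comparison were 12 of the 32, beside 4169 of 8644 over all genes. The SD between probe sets of a gene was log2 0.32 there, larger than the median difference of -0.29 in size. For the genotype comparisons that SD was log2 0.22 in LSK and 0.21 in MP, near the median LSK difference of 0.24, so a difference of that size in a single gene is within the spread between its probe sets. Over all genes with several probe sets these SDs were 0.27 and 0.24. Psmb3 is an example: its probe sets gave log2 0.13 and 0.47 in LSK and -0.52 and -0.88 between wild-type LSK and wild-type MP cells, with the same order of arrays and a different size.

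**Figure D5:**
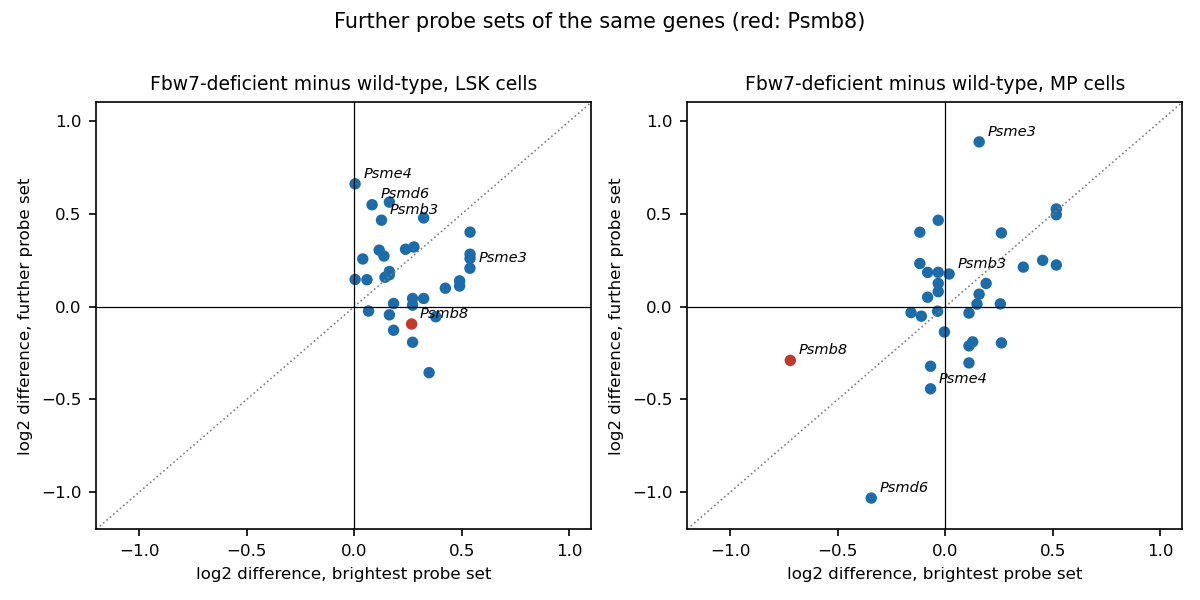
Log2 difference between Fbw7-deficient and wild-type cells on further probe sets (vertical) against that on the brightest probe set of the same gene (horizontal), for LSK (left) and MP cells (right), with equality dotted and Psmb8 in red. In LSK 26 of 32 further probe sets of the blue genes lie above 0, and in MP Psmd6 lies lowest at -1.03.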

How the data were processed

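RNA of 4 sorted populations was hybridised to Affymetrix arrays, 1 per group, after 20 ng of total RNA had been amplified in a 2-cycle protocol, per the labels' protocols. The authors deposited linear intensity values, 1 for each probe set and array. RMA is named in the submitters' processing notes, and the sources used here give neither its version nor its settings. RMA makes the arrays' distributions alike, so changes in total RNA are not seen. Here log2 was taken of the deposited values with no offset, and differences were computed between single arrays (python 3.11.15, numpy 2.4.6, pandas 2.3.3), with no test.

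Of 45101 probe sets, 34958 name 1 gene, 932 several and 9211 none in the annotation used; symbols were updated by gene ID through RefSeq. Genes with a highest array value of at least 157, the median of the table, were kept. Differences were counted from log2 0.32, 1.5-fold and 2-fold. The calculation was tested on simulated data. The members and gene lists were chosen with earlier results of these data known. Genes were named by a fixed rule: in each role group the highest and lowest for the LSK genotypes and for wild-type LSK minus MP, the immune subunits and Psme1, and any 1.5-fold apart; other members serve as examples. From lists without members, at most 4 genes per list with the largest LSK difference were taken, with Pomp, Nfe2l1, Tap1 and Irf1 always. Some genes of the lists are not reported here.

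Alternatives were the mean of all probe sets, only probe sets without a shared-transcript suffix, median centring, quantile normalization, an offset of 50, other level filters and symbols not updated.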

Additional observations from a re-analysis of the deposited data

Results flagged for a closer look

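Genotype differences of opposite sign in LSK and MP cells, at least 1.5-fold apart, were seen for 4 of the 46 members above the level filter. Each comes from single arrays, so the difference between populations was not tested. Psmb7 differed by log2 1.21 between the LSK and the MP genotype differences, Psmc5 by 1.15, Psmb8 by 0.99 and Psmc6 by 0.61. Of all genes, 7.01% had such opposite signs and a gap of that size in either direction, so the share among the members is near that of all genes. Psmb7 and Psmc5 rest on 1 probe set each, while further probe sets gave the opposite sign for Psmb8 in LSK cells and for Psmc6 in MP cells.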

How the results depend on the processing

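Over 9 alternatives, the median log2 difference of the members without immune subunits ranged from 0.20 to 0.27 for Fbw7-deficient against wild-type LSK, from 0.07 to 0.11 for MP, from -0.33 to -0.25 for wild-type LSK against MP and from -0.21 to -0.16 for Fbw7-deficient LSK against MP. With the mean of all probe sets, 6 genes instead of 11 were higher by at least log2 0.32 in Fbw7-deficient LSK cells, 5 instead of 8 were lower in Fbw7-deficient LSK than MP cells, 1 instead of 0 was lower in the difference of the genotype differences, and 5 instead of 3 were above 0 in wild-type LSK against MP. Median centring gave 3 above 0 instead of 7 in Fbw7-deficient LSK against MP and, like quantile normalization, 5 instead of 3 in wild-type LSK against MP. The median of the immune subunits in MP was -0.72, against -0.51 when probe sets were averaged. With only probe sets without a suffix, which leaves 2 of the 3, it was -0.46 in MP, -0.15 in LSK and 0.40 in Fbw7-deficient LSK against MP. A sign change of a single gene was counted as reversed only where its main difference was at least 1.5-fold. By that rule Psma1 was reversed in wild-type LSK against MP with the mean of all probe sets (0.059). The Psmc6 difference of differences was reversed with only probe sets without a suffix (-0.26). Smaller differences also changed sign and were not counted, such as Psmb1 in LSK with only probe sets without a suffix (-0.13 instead of 0.18). The level filter of 2000 was chosen after seeing the data. No replicate could be left out, and no paired analysis was possible because each group has 1 array.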
